A study of Homo sapiens with 6 samples.

Results

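The 43 genes described here encode the machinery that licenses replication origins and builds the replication fork. They were chosen by gene name, each read by the probe set that carried that symbol alone, and where a gene had several such probe sets, by the one with the highest mean over the 6 arrays. All 43 were measured, out of 18417 genes in the whole table, and no filter on low values was applied. The arrays held RNA of MCF10A, a non-tumorigenic line of human mammary epithelium that is long established, carrying ErbB2, a receptor tyrosine kinase, as the sample titles put it. Culture in 3-D in a reconstituted membrane lasted 7 days, in a medium with insulin, hydrocortisone, cholera toxin and horse serum, for all samples alike. By the labels, 3 arrays held RB-proficient cells (titles with the tag miNS) and 3 held RB-deficient cells (miRB). The tags are not spelled out, and nothing says whether a group was 1 clone or whether its arrays stand for separate cultures. The p-values therefore reflect only how these arrays spread, which may be technical, and precision is limited by their number.

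In dividing cells the origin recognition complex, CDC6 and CDT1 load the ring-shaped MCM helicase on DNA in G1 phase, a step called licensing. At the start of S phase CDC45 and the GINS complex join the ring to form the active helicase, and polymerases, the sliding clamp PCNA and its loaders then copy both strands. Many of these genes are classical targets of E2F transcription factors, which RB, the retinoblastoma protein, holds in check, so the design asks of this machinery how its transcripts compare with and without RB.

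Values are the deposited intensities, brought to the same median on every array and put on the log2 scale with a floor of 1, so that 0 marks the floor and a difference of 1 is a doubling. Differences are given as RB-deficient minus RB-proficient (n = 3 in each group), and their SE and adjusted p come from limma's test across all genes. Deposited medians were 24.2 to 27.1 in the RB-proficient arrays and 21.4 to 28.0 in the RB-deficient-labelled arrays. RB1, which encodes RB, read 7.01, 5.78 and 7.65 on the RB-proficient arrays, in the order 1 to 3, against 3.45, 5.09 and 6.04 on RB-deficient-labelled arrays 1 to 3. The groups overlapped for RB1 (difference −1.95 (SE 0.76), adjusted p 0.302), so every direction below rests on the labels. Over all genes, Pearson's r between RB-proficient arrays was 0.9 to 0.92, and between the RB-deficient-labelled arrays 0.67 to 0.75. RB-deficient-labelled array 3 was closer to the RB-proficient arrays (r 0.83 to 0.88) than to its own group (0.71 to 0.75). With the RB-proficient arrays, RB-deficient-labelled arrays 1 and 2 had r of 0.68 to 0.71 and 0.69 to 0.75. ACTB and GAPDH, used as reference genes, were lower in every RB-deficient-labelled array (differences −1.92 and −1.23, adjusted p 0.213 and 0.302), and their part in the results below was not tested. Of 12 listed markers of basal mammary epithelium 8 were measured, none at the floor. Their summed intensity was 3474 to 6168 in the RB-proficient arrays and 2026 to 2872 in the others. These sums weigh the brightest markers most. By gene, 7 of the 8 had negative differences (87.5%, all genes 58.6%), with a median of −1.67 beside −0.21 over all genes. The marker with the highest mean level had a positive one. Marker lists of fibroblasts (8 genes, sums of 169 to 225 against 160 to 293), endothelium (5 genes, 477 to 598 against 307 to 360) and leukocytes (6 genes, 145 to 162 against 149 to 236) were also read, of which 2 fibroblast markers were at the floor in RB-deficient-labelled array 1. Among the endothelial markers CDH5 was by far the brightest, at 8.70, 8.98 and 9.10 against 8.29, 7.82 and 8.07 on the log2 scale. The endothelial sums therefore follow this gene, and 2 of the 5 markers had positive differences. Whether low signals lay above background is unknown.

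None of the 43 replication genes passed limma's test at an adjusted p under 0.05, and the smallest adjusted p among them was 0.226. Over all genes 0.00543% passed. At an unadjusted p of 0.05, 5 members were lower in the RB-deficient-labelled arrays (MCM3, MCM5, POLA1, POLA2 and RFC2) and 0 were higher, which is 11.6% of the members where 10.8% of all genes were lower and 2.85% higher. Groups were fully separated, with no overlap of their 3 values, for 5 members (MCM5, POLA1, POLA2, RFC2 and TIMELESS), all lower, again 11.6% beside 15.3% of all genes, and for 0 members in the other direction, beside 7.12%. These shares are close to the background, so neither count sets the replication genes apart. In all, 29 members (67.4%, all genes 58.6%) had a negative difference and 14 a positive one, with a median of −0.31 beside −0.21 over all genes. That median was 0.08 without RB-proficient array 3 and 0.07 without RB-deficient-labelled array 2, so its sign rested on single arrays. Intervals were wide: the 95% interval spanned more than 2 log2 units for all 43 members, and a p that misses the threshold does not show that levels were alike.

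**Figure D1:**
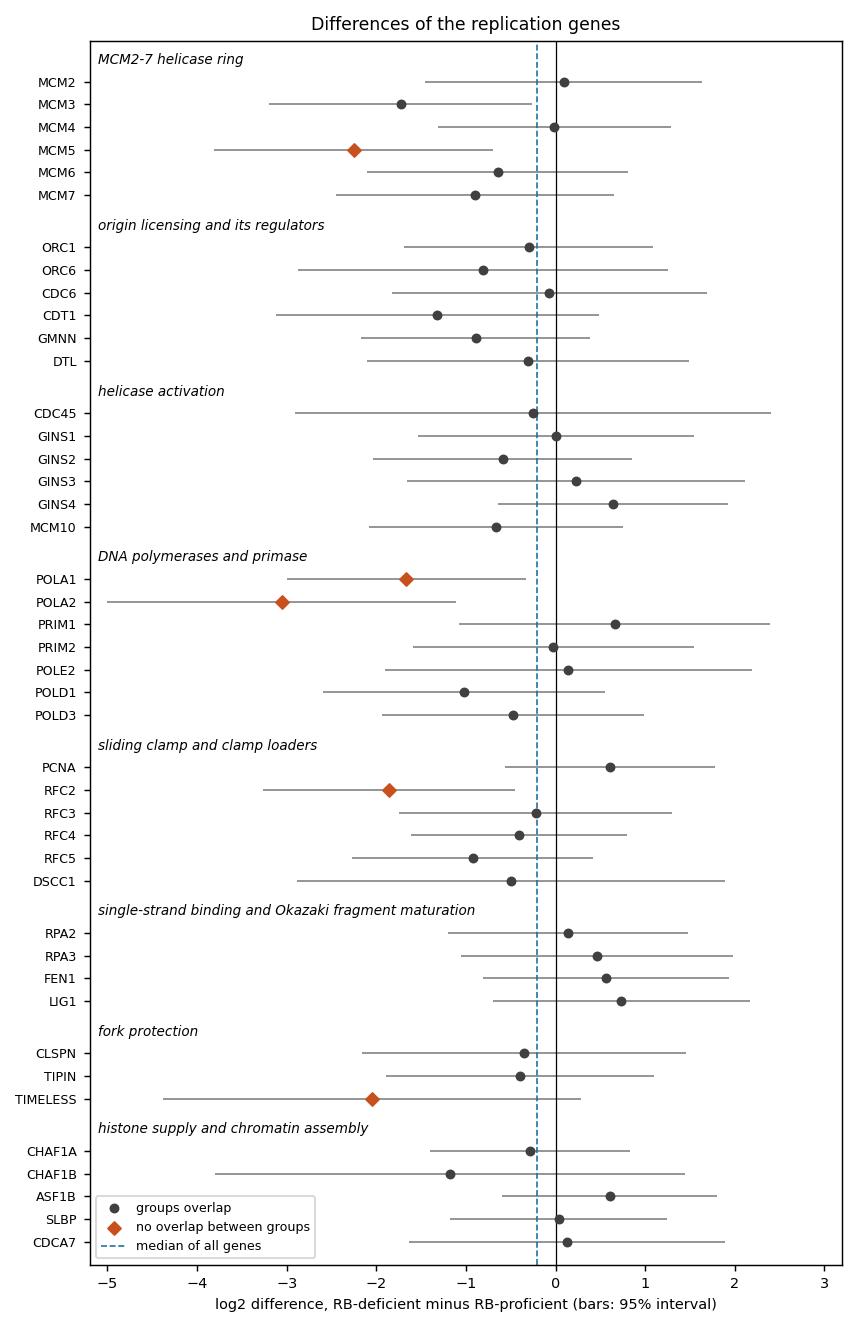
Log2 difference between the groups (x axis, RB-deficient minus RB-proficient) for each of the 43 replication genes, grouped by role. Points are mean differences with n = 3 arrays per group, bars are 95% intervals, diamonds mark the 5 genes whose groups did not overlap, and the dashed line is the median of all genes at −0.21. The intervals of most genes cross 0, and the 5 diamonds lie at −1.66 or below.

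E2F letters were more frequent in the promoters of these genes than in others, though only 50% of those matched held any. RefSeq promoter windows (GRCh38.p14, 250 bases before to 50 after the start site) matched 36 members by gene number, and MCM4, MCM5, GINS4, POLD3, DSCC1, RPA2 and RPA3 were not matched. E2F sites were searched on both strands as the letters TTTCCCGC, TTTGGCGC, TTTCGCGC or TTTGCCGC, of which some matches overlap each other. They occurred in 18 of 36 member promoters (50%) and in 644 of 14237 promoters of measured genes (4.52%), or in 5.36% of those measured promoters whose GC content was 60% or more. CCAAT, the box bound by NF-Y, was present on either strand in 20 of 36 (55.6%) beside 36.3%. TTTGAA, the core of the CHR element of mitotic genes, was present in 1 of 36 (2.78%) beside 11.9%. A match describes letters only, and nothing here measured binding.

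The 200 bases before the start site are shown for 9 genes, with E2F letters in capitals, because they set the promoters of the ring, the polymerase alpha subunits, the clamp and the ligase beside each other. RFC2 and FEN1, which held none of the letters, are included for contrast. The windows are MCM3 at chr6:52284743-52284942, MCM6 at chr2:135876444-135876643, MCM7 at chr7:100101398-100101597, PCNA at chr20:5126623-5126822, LIG1 at chr19:48170345-48170544 and RFC2 at chr7:74254400-74254599 on the minus strand, and POLA1 at chrX:24693718-24693917, POLA2 at chr11:65261762-65261961 and FEN1 at chr11:61792711-61792910 on the plus strand, each written 5′ to 3′ along its gene.
MCM3: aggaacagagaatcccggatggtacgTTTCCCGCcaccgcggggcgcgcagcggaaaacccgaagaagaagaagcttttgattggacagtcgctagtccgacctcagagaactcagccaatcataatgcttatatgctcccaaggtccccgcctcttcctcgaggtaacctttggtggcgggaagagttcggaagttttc
MCM6: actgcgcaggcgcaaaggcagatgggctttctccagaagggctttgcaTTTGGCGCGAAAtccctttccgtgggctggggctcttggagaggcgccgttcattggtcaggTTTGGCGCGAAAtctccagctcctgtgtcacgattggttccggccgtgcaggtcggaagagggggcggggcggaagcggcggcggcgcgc
MCM7: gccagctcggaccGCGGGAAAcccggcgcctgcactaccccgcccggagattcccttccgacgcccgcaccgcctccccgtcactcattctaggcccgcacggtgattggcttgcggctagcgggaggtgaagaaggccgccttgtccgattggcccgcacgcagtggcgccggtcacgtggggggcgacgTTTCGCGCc
POLA1: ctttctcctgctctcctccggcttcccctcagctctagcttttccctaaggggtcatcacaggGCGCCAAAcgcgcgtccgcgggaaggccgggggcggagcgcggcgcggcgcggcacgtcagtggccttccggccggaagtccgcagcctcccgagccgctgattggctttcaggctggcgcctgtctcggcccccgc
POLA2: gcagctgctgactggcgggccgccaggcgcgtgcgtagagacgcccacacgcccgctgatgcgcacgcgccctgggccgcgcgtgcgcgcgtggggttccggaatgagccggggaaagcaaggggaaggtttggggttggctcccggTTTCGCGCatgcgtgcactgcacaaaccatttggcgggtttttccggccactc
PCNA: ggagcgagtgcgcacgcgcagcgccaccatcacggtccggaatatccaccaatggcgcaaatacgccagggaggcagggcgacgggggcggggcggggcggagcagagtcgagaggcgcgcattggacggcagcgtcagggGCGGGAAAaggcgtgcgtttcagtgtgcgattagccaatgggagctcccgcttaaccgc
LIG1: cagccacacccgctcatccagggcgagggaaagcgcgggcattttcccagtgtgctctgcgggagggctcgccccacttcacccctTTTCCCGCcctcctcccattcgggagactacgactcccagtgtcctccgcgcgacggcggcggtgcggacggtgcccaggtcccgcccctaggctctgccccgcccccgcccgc
RFC2: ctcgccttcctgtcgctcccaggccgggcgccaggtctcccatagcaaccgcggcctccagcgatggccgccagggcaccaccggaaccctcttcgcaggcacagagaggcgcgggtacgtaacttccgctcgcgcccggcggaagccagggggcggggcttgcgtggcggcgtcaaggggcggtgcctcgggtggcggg
FEN1: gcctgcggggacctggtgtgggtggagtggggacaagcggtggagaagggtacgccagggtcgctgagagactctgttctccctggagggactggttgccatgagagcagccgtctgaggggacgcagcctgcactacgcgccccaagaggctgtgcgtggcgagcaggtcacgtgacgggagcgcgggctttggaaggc
MCM6 held 4 matches in this window, in overlapping pairs on opposite strands, and MCM7 held 2. MCM3 had a further match that spans its start site and is therefore not in capitals. POLA2, with E2F letters, and RFC2, without, were both among the 5 genes without overlap, and LIG1, with, and FEN1, without, both had positive differences.

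The members with and without E2F letters had similar medians by group but not in every array. The median difference was −0.26 over the 18 members with the letters, 11 of them negative, and −0.40 over the 18 without, 14 of them negative. Relative to the RB-proficient mean, the members with the letters had medians of 0.74, −1.15 and −0.59 in RB-deficient-labelled arrays 1 to 3. Those without had medians of −0.09, −1.15 and −0.20. The medians lay apart in array 1, where that of the members with the letters was higher. Single values overlapped there, from −4.96 (POLA2, at the floor) to 2.33 (POLE2) with the letters. Without the letters they ran from −2.09 (POLD1) to 2.29 (PRIM1). In array 2 the medians were the same, and in array 3 the members with the letters had the lower median. These are descriptions of chosen genes and were not tested.

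**Figure D2:**
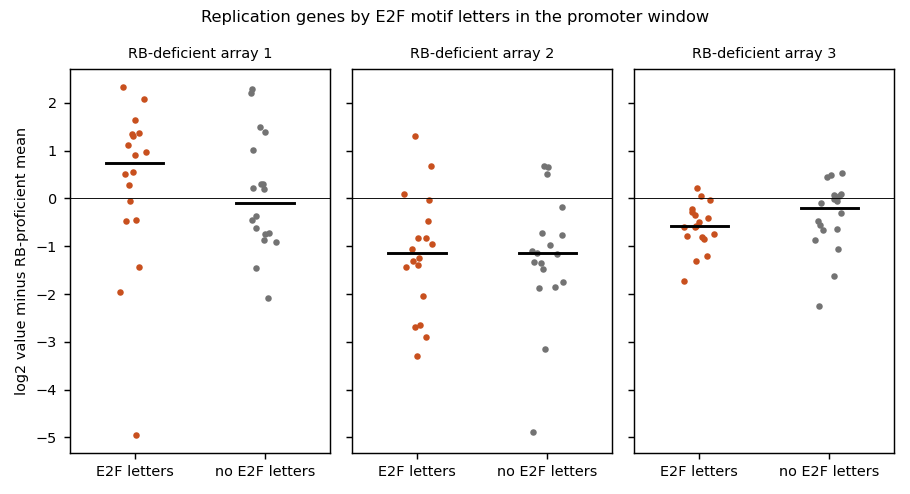
Log2 value of each member minus its RB-proficient mean (y axis), shown for each RB-deficient-labelled array. Orange points are the 18 members with E2F letters in the promoter window, grey points the 18 without, and bars are medians. In array 1 the medians are 0.74 and −0.09, in array 2 both are −1.15, and in array 3 they are −0.59 and −0.20.

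The replication genes had a larger median spread between arrays of the same group than all genes had. Their median SD over the RB-proficient arrays was 0.74, beside 0.40 for all genes, and over the RB-deficient-labelled arrays 1.02 beside 0.84. Related lists read below shared this. The proliferation and mitosis markers had median SDs of 0.80 and 1.14, and the 32 other replication genes 0.55 and 1.00. RB-proficient array 3 exceeded array 1 for 40 of 43 members (93%, all genes 56.2%), by a median of 1.05. It exceeded array 2 for 35 (81.4%, all genes 60.9%). Among the RB-deficient-labelled arrays, array 1 exceeded array 2 for 36 members (83.7%, all genes 53.1%), by a median of 1.26. The highest of a member's 6 values lay in RB-proficient array 3 for 21 members and in RB-deficient-labelled array 1 for 17, together 38 of 43, beside 22% and 25.9% of all genes. The lowest lay in RB-deficient-labelled array 2 for 23 members (53.5%, all genes 29.9%). A high and a low array of these genes thus occurred in each group.

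**Figure D3:**
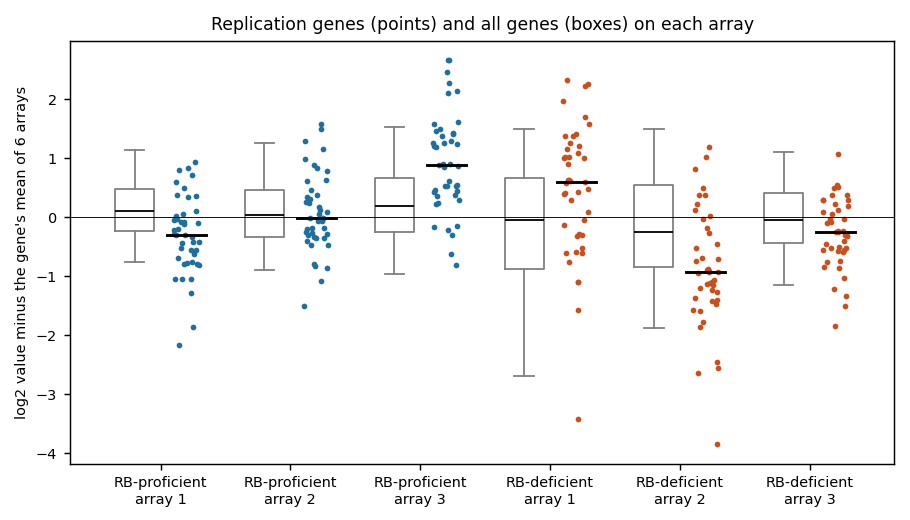
Log2 value minus the gene's mean over the 6 arrays (y axis) for each array. Points are the 43 replication genes with a bar at their median, and boxes are all 18417 genes with quartiles and whiskers at the 5th and 95th percentile. Members sit highest in RB-proficient array 3 and in RB-deficient-labelled array 1, and lowest in RB-deficient-labelled array 2.

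Set against the RB-proficient mean, 15 members (34.9%, all genes 12.9%) were higher in RB-deficient-labelled array 1 and lower in both others, among them MCM2, MCM4, MCM7, CDC6, CDC45, GINS1, GINS2, MCM10, RFC3, RFC4 and CLSPN. All 3 arrays lay below that mean for 13 members (30.2%, all genes 27.2%) and above it for 2, PCNA and LIG1 (4.65%, all genes 14.3%). A list of 14 proliferation and mitosis markers was likewise highest in those arrays, with median levels of 5.34, 6.28 and 7.12 on the RB-proficient arrays, in the order 1 to 3, against 7.51, 4.86 and 5.74 in the RB-deficient-labelled arrays. RB-deficient-labelled arrays 1 and 2 also had the most genes at the floor, 4.71% and 1.62% against 0.326% to 0.684% in the 4 others. The part of either in the array differences was not tested.

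The MCM2 to MCM7 proteins form the hexameric ring of the replicative helicase, and none of the 6 genes passed the test. MCM5 read 3.98, 4.84 and 6.72 in the RB-proficient arrays against 2.95, 2.82 and 3.01 in the RB-deficient-labelled arrays. Every value of the second group lay below the first, and all were dim. The difference was −2.25 (SE 0.69) (95% interval −3.81 to −0.70, adjusted p 0.241). It was −1.48 without RB-proficient array 3 and −1.19 with a floor of 16 (adjusted p 0.533). MCM3 read 5.73, 5.26 and 6.62 against 3.90, 3.22 and 5.29, where RB-deficient-labelled array 3 overlapped RB-proficient array 2. It differed by −1.73 (SE 0.65) (adjusted p 0.295), and without RB-deficient-labelled arrays 1 and 2 the difference was −0.58.

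The other ring subunits overlapped between the groups. MCM7 read 6.51, 6.95 and 7.35 against 7.49, 4.89 and 5.73, the second group holding both the highest and the lowest value, for a difference of −0.90 (SE 0.69). MCM6 read 5.93, 5.49 and 7.42 against 5.83, 4.84 and 6.24 and differed by −0.65 (SE 0.65). MCM4 read 6.58, 5.80 and 7.53 against 7.11, 6.46 and 6.31. MCM2 gave 4.13, 4.73 and 5.78 against 6.19, 4.05 and 4.66. For MCM2 and MCM4 the group means lay close together (differences 0.09 and −0.01, SE 0.69 and 0.58), with intervals of −1.46 to 1.63 and −1.31 to 1.29. The adjusted p of these 4 was 0.586 to 0.993. In the ring as a whole 5 of 6 differences were negative, with a median of −0.77, which was −0.38 without RB-proficient array 3 and −0.29 without RB-deficient-labelled array 2. In the latter array all but MCM4 lay below every RB-proficient value, beside 48% of all genes.

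**Figure D4:**
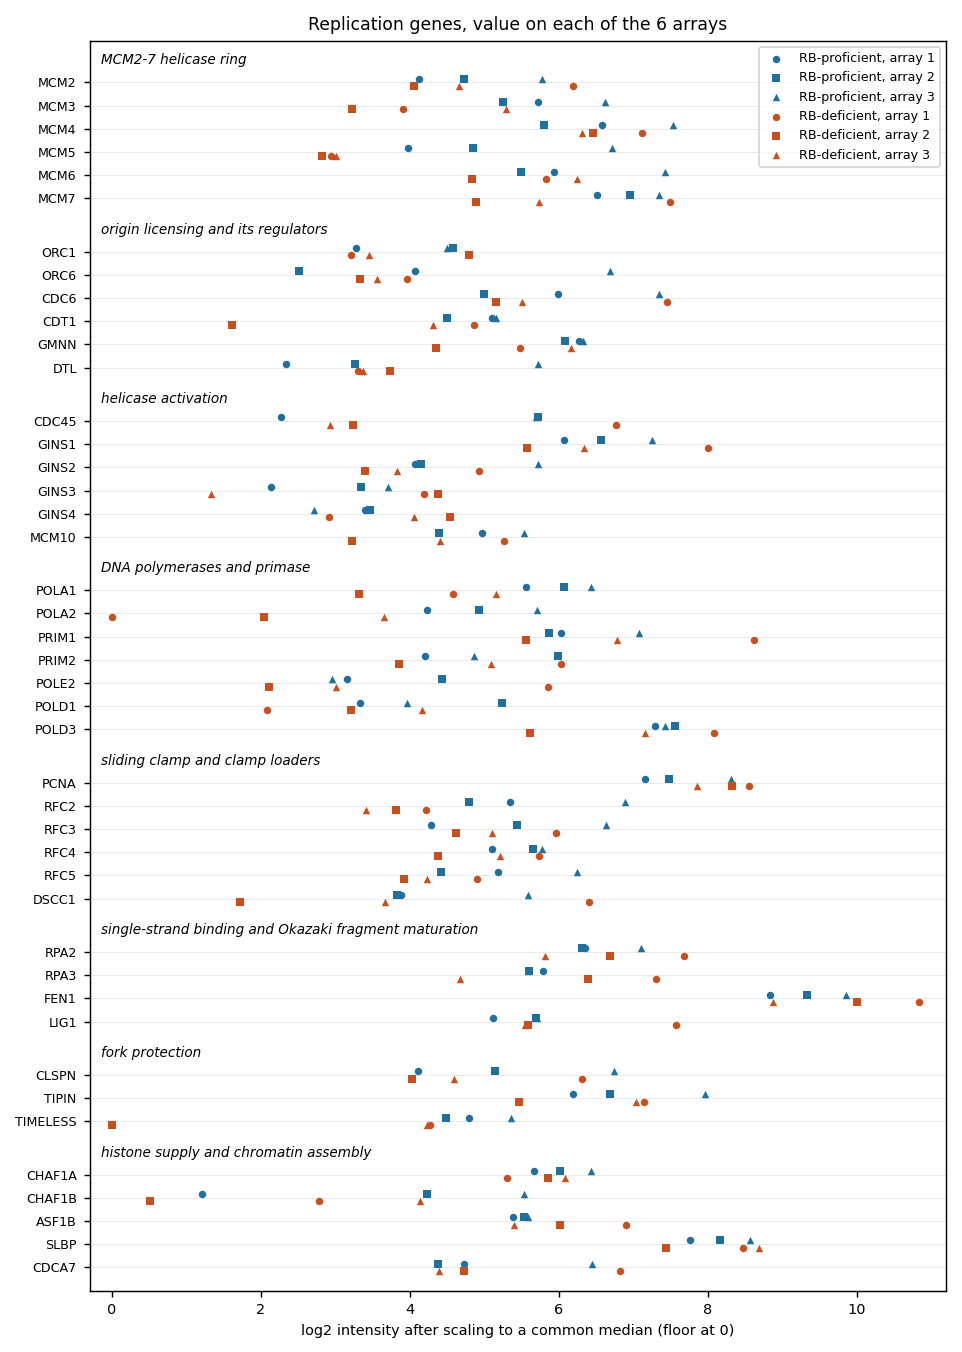
Log2 intensity (x axis) of each of the 43 replication genes on each array, grouped by role. Blue symbols are the 3 RB-proficient arrays, orange symbols the 3 arrays labelled RB-deficient, and the symbol's shape gives the array number. POLA2 and TIMELESS each have 1 orange value at the floor of 0, and MCM5 shows its 3 orange values close together below all blue ones.

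Genes of origin licensing and its control had negative differences for 6 of 6 members, with a median of −0.56, and 0 of them passed the test. The count did not hold in every setting. With quantile normalization, centring on the gene median or array weights, 5 were negative and 1 positive. The same split was seen when any single RB-deficient-labelled array was left out. Without RB-proficient array 3, 3 of the 6 were positive (CDC6 at 0.54, DTL at 0.67 and ORC6 at 0.33) and the median was 0.11. CDT1, which brings the ring to origins, read 5.10, 4.50 and 5.15 against 4.86, 1.62 and 4.32. RB-deficient-labelled array 2 stood far below the rest, and the group difference of −1.32 (SE 0.80) (adjusted p 0.491) was −0.33 without it. GMNN, which encodes geminin, the inhibitor of CDT1, read 6.26, 6.08 and 6.32 against 5.48, 4.35 and 6.16. The RB-proficient values of GMNN lay close together, RB-deficient-labelled array 3 lay among them and the other two lay below (difference −0.89 (SE 0.57), adjusted p 0.511). CDC6, the ATPase that acts with CDT1 in loading, read 5.99, 5.0 and 7.34 against 7.45, 5.15 and 5.51, with a difference of −0.07 (SE 0.78). ORC1, the largest subunit of the origin recognition complex, differed by −0.30 (SE 0.62), from 3.27, 4.57 and 4.50 to 3.21, 4.79 and 3.45. ORC6, the smallest, read 4.07, 2.51 and 6.69 against 3.96, 3.33 and 3.56 (−0.81 (SE 0.92)). DTL, the substrate receptor of the ubiquitin ligase that destroys CDT1 in S phase, read 2.34, 3.26 and 5.72 against 3.30, 3.73 and 3.36, where the RB-deficient-labelled arrays all lay inside the RB-proficient range (difference −0.31 (SE 0.80)).

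Genes that turn the loaded ring into an active helicase were split, with 3 negative and 3 positive differences and a median of −0.12. CDC45, which joins the ring together with GINS, read 2.27, 5.72 and 5.70 against 6.77, 3.23 and 2.93. Its values formed a high and a low set that cut across the groups, for a difference of −0.25 (SE 1.18). Among the subunits of GINS, GINS1 read 6.07, 6.56 and 7.25 against 8.00, 5.57 and 6.34 (difference 0.01, interval −1.53 to 1.55). GINS2 read 4.07, 4.14 and 5.72 against 4.93, 3.40 and 3.83 (−0.59 (SE 0.64)). Both were highest or second highest in RB-deficient-labelled array 1. GINS3 read 2.14, 3.35 and 3.71 against 4.18, 4.37 and 1.33 (0.23 (SE 0.84)), and GINS4 3.40, 3.47 and 2.71 against 2.91, 4.54 and 4.06 (0.64 (SE 0.57), adjusted p 0.634, the smallest of this role). MCM10, a fork protein needed for origin firing, read 4.97, 4.38 and 5.54 against 5.26, 3.22 and 4.40 and differed by −0.67 (SE 0.63).

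None of the 7 polymerase and primase genes passed the test, and 5 had negative differences, with a median of −0.47. DNA polymerase alpha and primase form a complex that starts each new strand with a short primer. POLA2, its regulatory subunit, read 4.23, 4.92 and 5.71 against 0, 2.05 and 3.65, RB-deficient-labelled array 1 being at the floor. The difference was −3.06 (SE 0.87), with an interval of −5.00 to −1.11 and an adjusted p of 0.226, and a fold is not given because of the floored value. Both its size and its rank as the most negative of the members depended on that array and on the floor. Without the array the difference was −2.11, where TIMELESS was at −2.76 and MCM5 at −2.26. With a floor of 16 it was −0.96, where RFC2 was at −1.60. POLA1, the catalytic subunit, read 5.56, 6.06 and 6.43 against 4.58, 3.32 and 5.16. All values labelled RB-deficient lay below all RB-proficient ones (difference −1.66 (SE 0.60), 3.17-fold lower, adjusted p 0.282), and the difference was −0.86 without RB-deficient-labelled arrays 1 and 2.

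The primase subunits of the same complex overlapped between the groups. PRIM1, the catalytic primase, read 6.03, 5.87 and 7.07 against 8.62, 5.56 and 6.77, with the highest of its values in RB-deficient-labelled array 1 and a difference of 0.66 (SE 0.77). PRIM2, the large primase subunit, read 4.20, 5.99 and 4.86 against 6.03, 3.86 and 5.09 (−0.02 (SE 0.70)). In RB-deficient-labelled array 1, POLA1 and POLA2 were thus below every RB-proficient value while PRIM1 and PRIM2 were above every one. Of all genes 42.1% were below and 35.2% above every RB-proficient value in that array. A difference between the subunits was not tested. POLE2, a subunit of the leading-strand polymerase epsilon, read 3.15, 4.43 and 2.96 against 5.85, 2.11 and 3.01 (0.14 (SE 0.91)). POLD1, the catalytic subunit of polymerase delta, read 3.32, 5.24 and 3.95 against 2.08, 3.21 and 4.16 (−1.02 (SE 0.70)). POLD3, an accessory subunit of delta, read 7.29, 7.56 and 7.42 against 8.09, 5.61 and 7.15 (−0.47 (SE 0.65)), a tight RB-proficient group with the other arrays on both sides. All 7 polymerase and primase genes were below every RB-proficient value in RB-deficient-labelled array 2, where 48% of all genes and 60.5% of the 43 members were. Without that array 3 of the 7 differences were negative.

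PCNA, the clamp that tethers polymerases to DNA, and its loaders had negative differences in 5 of 6 cases, with a median of −0.45 that was 0.021 without RB-deficient-labelled array 2. PCNA read 7.15, 7.47 and 8.30 against 8.56, 8.32 and 7.86. All RB-deficient-labelled arrays lay above the RB-proficient mean (difference 0.60 (SE 0.52), interval −0.57 to 1.77, adjusted p 0.624). The direction held in each of the 18 alternative settings, between 0.22 and 0.94. These settings re-used the same arrays, and some of them could not move the difference. PCNA was among the 18 members that kept their sign in every setting that measured them. RFC2, a subunit of the clamp loader RFC, read 5.34, 4.79 and 6.89 against 4.21, 3.81 and 3.41. Its groups did not overlap, and it differed by −1.86 (SE 0.63), or 3.63-fold lower (interval −3.27 to −0.45, adjusted p 0.269). The difference was −1.25 without RB-proficient array 3 and −2.26 without RB-deficient-labelled arrays 1 and 2. The RFC subunits beside it overlapped between groups: RFC3 read 4.29, 5.43 and 6.63 against 5.96, 4.62 and 5.10 (−0.22 (SE 0.68)). RFC4 read 5.11, 5.65 and 5.77 against 5.74, 4.37 and 5.21 (−0.41 (SE 0.54)), and RFC5 5.18, 4.41 and 6.24 against 4.91, 3.92 and 4.23 (−0.93 (SE 0.60)). DSCC1, part of an alternative loader that acts with sister chromatid cohesion, read 3.87, 3.82 and 5.58 against 6.41, 1.71 and 3.67 and spanned more in the second group than the other loader genes (−0.50 (SE 1.06)).

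The genes for single-strand binding and for joining Okazaki fragments had positive differences in 4 of 4 cases, with a median of 0.51, and none passed the test. LIG1, the ligase that seals the fragments, read 5.11, 5.69 and 5.70 against 7.57, 5.59 and 5.54 (0.73 (SE 0.64), adjusted p 0.627). FEN1, the nuclease that trims their flaps, read 8.84, 9.33 and 9.85 against 10.83, 10.00 and 8.88 (0.56 (SE 0.61), adjusted p 0.702). In RB-deficient-labelled array 1 all 4 genes lay above every RB-proficient value, as did 35.2% of all genes and 41.9% of the 43 members. The 4 positive differences rested on that array: without it they were 0.067 for LIG1, 0.10 for FEN1, −0.13 for RPA3 and −0.34 for RPA2, with a median of −0.031. RPA3, the small subunit of the single-strand binding protein RPA, read 5.78, 5.59 and 5.59 against 7.30, 6.38 and 4.67 (0.46 (SE 0.68)), and RPA2, its middle subunit, 6.35, 6.32 and 7.10 against 7.68, 6.68 and 5.81 (0.14 (SE 0.59)). For both, RB-deficient-labelled array 3 lay below every RB-proficient value, and without RB-deficient-labelled arrays 1 and 2 the differences were −0.99 for RPA3, −0.78 for RPA2 and −0.46 for FEN1.

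The fork protection genes had negative differences in 3 of 3 cases, but in 1 of 3 without RB-proficient array 3 or without RB-deficient-labelled array 2. TIMELESS, which forms a complex with TIPIN at the moving fork, read 4.79, 4.49 and 5.35 against 4.26, 0 and 4.23, with RB-deficient-labelled array 2 at the floor. Its groups did not overlap, yet it had an unadjusted p above 0.05 (difference −2.05 (SE 1.04), adjusted p 0.415), and the difference was −0.63 without that array and −0.71 with a floor of 16. TIPIN read 6.19, 6.68 and 7.95 against 7.14, 5.47 and 7.03 (−0.40 (SE 0.67)). CLSPN, which encodes claspin, the mediator between stalled forks and the checkpoint kinase CHK1, read 4.10, 5.14 and 6.74 against 6.31, 4.02 and 4.59 on the probe set used here (−0.35 (SE 0.81)). It was the only member with a second probe set, and the probe sets disagreed: the other read 3.82, 4.20 and 5.66 against 0, 2.08 and 2.34, a difference of −3.08.

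The 5 genes grouped under histone supply and chromatin assembly, CDCA7 among them, had a median difference of 0.03. ASF1B, a histone chaperone, read 5.39, 5.54 and 5.58 against 6.90, 6.02 and 5.40 (0.60 (SE 0.53), adjusted p 0.632), a narrow RB-proficient group below 2 of the RB-deficient-labelled arrays. SLBP, which binds the stem-loop of histone mRNA, read 7.76, 8.17 and 8.56 against 8.47, 7.44 and 8.69 (0.03 (SE 0.54)). CHAF1A, a subunit of the assembly factor CAF-1, read 5.67, 6.01 and 6.43 against 5.31, 5.85 and 6.08 (−0.29 (SE 0.50)). CHAF1B, another subunit of it, spread widely in both groups, with 1.21, 4.23 and 5.53 against 2.78, 0.51 and 4.14 (−1.18 (SE 1.17)). CDCA7, a gene known as a target of MYC and E2F, read 4.73, 4.38 and 6.44 against 6.82, 4.72 and 4.39 (0.13 (SE 0.79)), highest in RB-proficient array 3 and in RB-deficient-labelled array 1.

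The rest of the replication machinery was read from a list of 32 genes chosen by function, such as the other ORC subunits, the kinase CDC7 with DBF4, and further polymerase and RNase H2 subunits. By limma's test 0 of 32 passed an adjusted p of 0.05 in either direction. At an unadjusted p of 0.05, 3 were lower and 0 higher, where 10.8% of all genes were lower and 2.85% higher. The median difference was −0.46 (all genes −0.21), with 22 negative (68.8%, all genes 58.6%). POLD2, a subunit of polymerase delta, read 5.22, 6.27 and 6.53 against 5.05, 2.82 and 3.60, without overlap (−2.18 (SE 0.67), adjusted p 0.241), and ORC3 read 5.51, 4.88 and 6.24 against 2.67, 3.35 and 5.12 (−1.83 (SE 0.70)).

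Upstream of these genes, 20 genes of the RB and E2F families and the G1/S cyclins and kinases had a median difference of −0.70 (all genes −0.21). Of these 20, 16 were negative (80%, all genes 58.6%), and 0 passed the test. CDK4, a kinase that inactivates RB, read 7.02, 7.67 and 8.73 against 6.74, 4.48 and 6.04, without overlap (−2.05 (SE 0.71), adjusted p 0.275). Their medians relative to the RB-proficient mean were −0.82, −1.13 and −0.54 in RB-deficient-labelled arrays 1 to 3, where the 43 members had 0.30, −1.14 and −0.50. The medians of the lists therefore lay apart in RB-deficient-labelled array 1. Among the proliferation and mitosis markers 0 of 14 passed, with 11 negative differences (78.6%, all genes 58.6%) and 3 positive ones. KIF20A, a kinesin of late mitosis, read 4.56, 5.18 and 6.72 against 1.71, 2.92 and 4.54, and BUB1, a kinase of the spindle checkpoint, 4.95, 6.19 and 6.37 against 3.99, 3.01 and 4.85, both without overlap (differences −2.43 and −1.89, adjusted p 0.267 and 0.271). In these bulk samples, a different share of cells in S phase and a different RNA amount per cell cannot be told apart.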

How the data were processed

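Per the labels, cells and matrix were lysed together, and the RNA was amplified and biotin-labelled. The authors deposited 1 intensity per probe set and array on a linear scale, made with Affymetrix Expression Console 1.1 per the submitters' processing notes. How these were summarised, background-corrected and normalized was not stated in the sources used here. Arrays were brought to a common median (26.8) over all 33297 probe sets, floored at 1 and put on the log2 scale. Probe sets with 1 gene symbol in the platform annotation (19460) gave 18417 genes. The group test was limma's (version 3.58.1, R 4.3.3; lmFit, eBayes, two-sided), with Benjamini-Hochberg adjustment over all genes and a threshold of 0.05. The fit was tested on simulated data with 200 changed genes (10 runs). The share recovered rose with the size set for a change: 0.4% (size 2 on the linear scale), 1.8% (size 4), 29% (size 8) and 74.2% (size 32). Counts of 0 passing therefore say little about changes of size 4 or smaller, and changes of size 8 were mostly missed too. The simulated noise was drawn separately for each gene, whereas the members moved together by array. Same-numbered arrays did not deviate together (r of −0.124, 0.074 and −0.109), so no pairing by number was used. The highest r of any pair was 0.24, between RB-proficient array 3 and RB-deficient-labelled array 1. Its cause was not tested. All 43 members may be named; other genes are RB1, ACTB, GAPDH and at most 2 of each list with the smallest p. The members and lists were chosen with earlier results of these data known. Promoter sequences are RefSeq's. Alternatives covered the scaling, floor, dim genes, probe sets, variance model, pairing and left-out arrays.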

Additional observations from a re-analysis of the deposited data

How the results depend on the processing

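Settings other than the scaling, the floor of 1 and all 6 arrays were tried for each result. The members passing an adjusted p of 0.05 numbered 0 under all 18 alternatives, with smallest adjusted p from 0.102 to 0.709, while all genes passing ran from 0 to 193. For the 32 other replication genes the count was also 0 throughout. With the replicate number as a block, 0 members passed (smallest adjusted p 0.138) and no call changed. In this balanced layout a block cannot alter the differences or the overlap. The unchanged median of −0.31 and the 5 members without overlap are therefore no check of pairing. The list median ran from −0.72 to 0.08 with single arrays left out, and was −0.05 without the dimmest 50% of genes, where all genes had −0.31. The members without overlap numbered 3 of 35 (8.57%, all genes 24.2%) without the dimmest 25% of genes and 1 of 24 (4.17%, all genes 25.2%) without the dimmest 50%, beside 11.6% and 22.4% with all genes kept. They numbered 16 (37.2%, all genes 63.1%) without RB-deficient-labelled arrays 1 and 2, and 5 to 13 (11.6% to 30.2%, all genes 27.6% to 41.7%) with single arrays left out. No other member reversed beside those named here, 18 of 43 keeping their sign under each alternative that measured them. Without RB-deficient-labelled arrays 1 and 2 the difference changed sign to −0.21 for MCM2, −0.29 for GINS1, −1.73 for GINS3, 0.0755 for PRIM2, −0.50 for POLE2, −0.78 for RPA2, −0.99 for RPA3, −0.46 for FEN1, 0.0902 for TIPIN, 0.0505 for CHAF1A, 0.48 for CHAF1B, −0.10 for ASF1B and −0.79 for CDCA7. With quantile normalization the difference changed sign to 0.15 for MCM4 and 0.000926 for CDC6. With centring on the gene median the difference changed sign to 0.12 for MCM4, 0.0628 for CDC6 and 0.11 for PRIM2. With array weights the difference changed sign to 0.0847 for DTL, −0.0436 for GINS1, −0.0814 for GINS3, 0.0126 for PRIM2, −0.20 for POLE2, −0.0714 for RPA2 and −0.033 for CDCA7. Without scaling the difference changed sign to −0.0357 for GINS1 and −0.0121 for SLBP. With a floor of 16 the difference changed sign to 0.0232 for PRIM2 and 0.27 for DSCC1. With an offset of 16 the difference changed sign to 0.00348 for PRIM2. With single arrays left out the differences ran from −0.52 to 0.55 for MCM2, −0.43 to 0.43 for MCM4, −0.79 to 0.00503 for ORC1, −1.76 to 0.33 for ORC6, −0.78 to 0.54 for CDC6, −1.02 to 0.67 for DTL, −1.48 to 0.44 for CDC45, −0.67 to 0.54 for GINS1, −0.31 to 1.21 for GINS3, −0.16 to 1.37 for PRIM1, −0.54 to 0.54 for PRIM2, −0.95 to 0.92 for POLE2, −1.04 to 0.19 for POLD3, −0.80 to 0.37 for RFC3, −1.74 to 0.61 for DSCC1, −0.34 to 0.59 for RPA2, −0.13 to 1.19 for RPA3, −1.02 to 0.35 for CLSPN, −0.77 to 0.14 for TIPIN, −0.21 to 0.41 for SLBP and −0.63 to 0.76 for CDCA7. Of the genes named outside the members, ACTB with an offset of 16 (difference −1.81, adjusted p 0.0393) and ACTB with eBayes with trend and robust (difference −1.92, adjusted p 0.0464) passed. The cause of these changes was not tested. Depth does not apply to arrays, and signal over background is unknown.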
